A study of Mus musculus with 12 samples.

Results

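Total RNA was compared between NIH-3T3 cells given 800 µM 4-thiouridine (4sU) for 2 h and NIH-3T3 cells given no 4sU, in the libraries converted in tubes, that is, after RNA isolation. The comparison takes 4 of the 12 libraries of the series, 2 in each group, called A and B, and the change was tested in 11080 of the 15217 genes of the table. NIH-3T3 is an established line of mouse embryonic fibroblasts. Per the labels the cells of both groups were wild type, grew in the same medium and were lysed in TRI reagent, and both are labelled with the same 2 h. The sources used here do not say what the cells without 4sU received in its place. The other 8 libraries received 200 µM 4sU in tubes, or no, 200 µM or 800 µM 4sU with conversion inside methanol-fixed cells, where the labels give another reaction temperature and time. They entered the fit for the estimate of the spread. The series' title gives the purpose of the study as bias in quantification when conversion is done in fixed cells or in tubes.

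4sU is a uridine analogue that cells take up and build into RNA made while it is present. In SLAM-seq, iodoacetamide alkylates the 4sU in the RNA, reverse transcription then reads it as cytosine, and reads with such conversions mark RNA made during the labelling. The share of a gene's RNA that is new after a fixed labelling time is high for transcripts that turn over fast, such as immediate early genes, and low for long-lived transcripts, such as those of ribosomal proteins. 4sU is also known to change gene expression at high doses in some cells, so total RNA of labelled and unlabelled cells can differ.

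Of the 4 tube libraries, those without 4sU held 3629634 (A) and 4585474 (B) counts. The deeper ones with 800 µM held 7504638 (A) and 6654809 (B), so depth differs with the group. Log counts of A and B correlated across genes at 0.976 without 4sU and at 0.985 with 800 µM, and their counts differed by more than sampling noise (chi-square per degree of freedom 5.83 and 6.21). Whether A and B came from separate cultures is not in the labels. The p-values therefore rest on the spread of these samples alone, and it may be technical. Of 12 fibroblast markers 11 were in the table, with summed levels of 16067.3 and 16236.8 CPM without 4sU and 19457.7 and 18667.7 CPM with it (CPM, counts per 1000000 of the TMM-scaled library size). Of 20 markers of other cell types 13 were in the table. They summed to 12.6 to 18.0 CPM in the 4 libraries, and 3 of them, Kdr, Gfap and Adipoq, were at 0 in all 4. In the fixed cells, the 800 µM libraries A and B differed more than those of any other group (chi-square per degree of freedom 22.81). This value does not say which of them is the unlike one. Without library A of that pair, an alternative added after the data were seen, the tube comparison below calls more genes, as given further below. The tube comparison was not fitted without library B of that pair.

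At 800 µM, 207 genes passed the threshold, a Benjamini-Hochberg (BH) adjusted p under 0.05 in edgeR's quasi-likelihood test, which is 1.87% of the genes tested. Of these, 101 rose (0.912%) and 106 fell (0.957%), 33 and 34 of them by over 2-fold. The rises include immediate early genes, ligands of the epidermal growth factor receptor, p53 targets and genes of secreted proteins. Among the falls are the insulin receptor substrates, chromatin silencing factors and an RNA methyltransferase subunit. The values are levels relative to all RNA of a library, so fewer cells of a kind and less RNA per cell cannot be told apart. Single libraries decide how many genes are called. Without no-4sU library A 88 passed and without no-4sU library B 27, without 800 µM library A 30 and without 800 µM library B 22. A group with 1 library left is assumed in these fits to vary like the others. Of the 71 called genes that the naming rule takes, 41, 55, 52 and 55 did not pass in these fits, in the same order, and 11 passed in every alternative setting tried, among them Angptl4, Zmym2, Nr4a1, Cdkn1a, Hbegf, Skil, Errfi1, Ereg, Slc30a1 and Lurap1l. When libraries were scaled on 1949 genes with the lowest share of new RNA, the median of all genes moved by −0.13 on the log2 scale, and 55 genes were called higher and 240 lower.

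**Figure D1:**
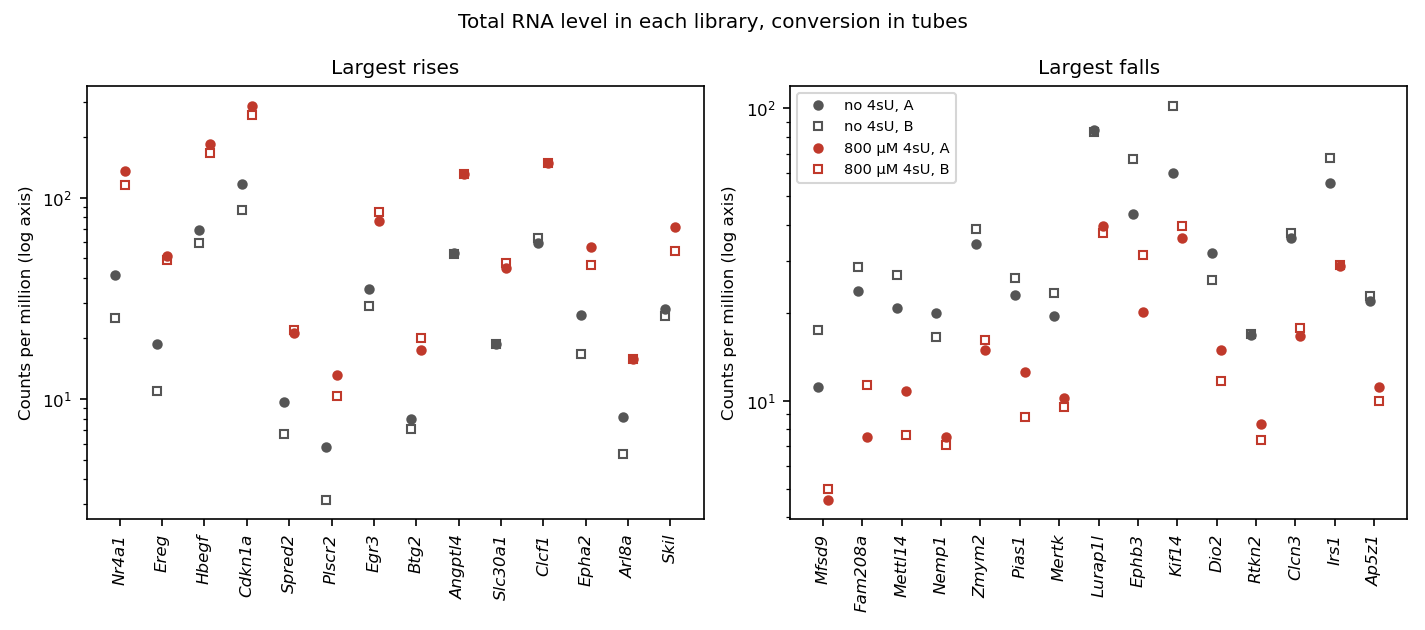
Total RNA level (CPM, log axis) of 14 of the 15 largest rises (left) and the 15 largest falls (right) in each of the 4 tube libraries; grey is no 4sU, red 800 µM 4sU, filled circles library A and open squares library B. In these genes, chosen for their call, both red points lie on the same side of both grey points, as for Nr4a1, with 115 and 135 CPM above 25.2 and 41.1 CPM.

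Immediate early genes, which cells switch on within minutes of a growth or stress signal without new protein, moved in both directions. Of 32 tested, 4 rose and 2 fell, and the list's median log2 change was 0.17, beside 0.026 for all genes tested. Over all genes tested 0.912% rose and 0.957% fell, the shares to set beside the counts of this and the later lists. The lists were chosen with earlier results of these data known. Nr4a1, an orphan nuclear receptor (chr15:101254269-101274795, GRCm38), stood at 41.1 CPM in library A and 25.2 CPM in library B without 4sU, and at 135 and 115 CPM with 800 µM. The log2 change was 1.93 (SE 0.19; 2 libraries in each group; edgeR BH-adjusted p = 6.02e-05). Its new-to-total ratio, the share of its RNA that carried label, was 100% in A (0.05 to 0.95 quantiles 98.7% to 100%) and 99.1% in B (96.3% to 99.7%). So nearly all Nr4a1 RNA in the labelled cells carried label, and the rise lies in the labelled part. Egr3, a zinc finger transcription factor, went from 35.1 and 28.9 CPM to 76.4 and 84.7 CPM, a log2 change of 1.33 (SE 0.22; edgeR BH-adjusted p = 0.00464), with ratios of 90.0% and 90.4%. Btg2, an antiproliferative gene that p53 also induces, went from 7.94 and 7.14 CPM to 17.5 and 20.1 CPM (log2 change 1.32, SE 0.24; edgeR BH-adjusted p = 0.00864). Maff, a small Maf transcription factor, rose by 0.76 (SE 0.17).

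Ier5 and its paralogue Ier5l went the other way. Ier5 (chr1:155096361-155099636) stood at 641 and 658 CPM without 4sU and at 411 and 365 CPM with it, a log2 change of −0.74 (SE 0.13; n = 2 and 2; edgeR BH-adjusted p = 0.00671). Ier5l was at 64.0 and 68.8 CPM without 4sU and at 44.4 and 35.4 CPM with it (log2 change −0.73, SE 0.18). Their ratios were as high as those of the risen immediate early genes, 96.6% and 95.1% for Ier5 and 98.8% and 100% for Ier5l. Fos lay at 3.61 and 0.793 CPM without 4sU and at 4.21 and 2.78 CPM with it (log2 change 0.73, SE 0.66, but −0.035 without no-4sU library B), and Myc at 0.29 (SE 0.34, but −0.117 without that library). Neither passed, and their libraries overlapped between the groups.

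The promoters of the 2 immediate early genes with the largest rise that have an entry, Nr4a1 and Btg2, and of the one with the largest fall, Ier5, are shown because these genes share a fast turnover and differ in direction. The sequences are the 250 bases before the RefSeq transcription start on GRCm38.p6, on the gene's own strand, 5′ to 3′. Capitals mark matches on either strand to the cAMP response element TGACGTCA, the AP-1 site TGANTCA, the metal response element TGCNCNC, the CArG box of serum response factor, TATAAA and the E-box CACGTG. Matches to different motifs were counted separately, also where they overlap. N stands for any base, so TGCNCNC is a loose form of the metal response element, and a match need not be that element.
Nr4a1, chr15:101266596-101266845, plus strand: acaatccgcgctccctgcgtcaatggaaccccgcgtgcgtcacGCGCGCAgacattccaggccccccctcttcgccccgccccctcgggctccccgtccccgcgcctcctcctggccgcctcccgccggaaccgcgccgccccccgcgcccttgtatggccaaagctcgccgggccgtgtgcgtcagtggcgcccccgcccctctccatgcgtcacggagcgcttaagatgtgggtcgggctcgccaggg
Btg2, chr1:134079156-134079405, minus strand: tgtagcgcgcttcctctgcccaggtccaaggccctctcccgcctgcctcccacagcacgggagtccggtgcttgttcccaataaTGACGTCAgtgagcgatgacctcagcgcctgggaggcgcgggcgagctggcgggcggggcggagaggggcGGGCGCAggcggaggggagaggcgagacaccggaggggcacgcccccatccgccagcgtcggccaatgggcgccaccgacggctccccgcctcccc
Ier5, chr1:155099637-155099886, minus strand: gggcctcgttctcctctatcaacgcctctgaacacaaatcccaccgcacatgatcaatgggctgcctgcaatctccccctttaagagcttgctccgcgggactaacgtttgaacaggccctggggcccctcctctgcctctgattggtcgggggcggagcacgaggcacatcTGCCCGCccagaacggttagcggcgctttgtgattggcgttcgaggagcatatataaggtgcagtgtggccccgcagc
Of the letters searched, the Btg2 window holds the full cAMP response element, with its first base at −166 from the start, and a window of Maff holds it at −29. That element is in 2.7% of the windows of tested genes, 4.5% of the 88 windows of 72 risen genes and 5.1% of the 99 windows of 81 fallen genes. The pattern for the metal response element, which is short and loose, is in 53.1% of windows of tested genes and in all 3 windows shown. The AP-1 site is in 4.2% of windows of tested genes, 9.1% of those of risen and 2.0% of those of fallen genes. The CArG box is in 1.2%, 0.0% and 2.0%, TATAAA in 6.0%, 6.8% and 4.0%, and the E-box in 8.5%, 8.0% and 9.1%. These are matches of letters and were not tested. The genes shown were chosen after their values and matches were seen.

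Epiregulin and HB-EGF, ligands of the epidermal growth factor receptor, and an inhibitor of the receptor rose. The receptor's ligands activate Ras and MAP kinases, and Errfi1, Spred and Dusp proteins damp that signal. Of 8 tested genes of the receptor family, its ligands and its inhibitor Errfi1, 3 rose and 0 fell, with Errfi1 among the 3. The list's median log2 change was 0.13, and 0.0 when libraries were scaled on genes with the lowest ratio. Of its members 4 had a positive log2 change and 4 a negative one. Ereg, the ligand epiregulin (chr5:91074622-91093646), stood at 18.8 and 10.9 CPM without 4sU and at 51.4 and 48.8 CPM with it. Its log2 change was 1.77 (SE 0.24; n = 2 and 2; edgeR BH-adjusted p = 0.00111), and 88.0% and 95% of its RNA carried label. Hbegf, the ligand HB-EGF, stood at 68.8 and 59.3 CPM without 4sU and at 185 and 167 CPM with it. Hbegf changed by 1.46 (SE 0.15; edgeR BH-adjusted p = 6.02e-05), with ratios of 97.1% and 100%. Errfi1, which binds and inhibits the receptor's kinase, went from 43.8 and 42.2 CPM to 93.8 and 96.2 CPM (log2 change 1.14, SE 0.16; edgeR BH-adjusted p = 0.00111), and its ratio was 100% in both libraries.

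Among 19 MAP kinase feedback inhibitors 2 rose and 1 fell, with Errfi1 counted in both lists. Spred2, an inhibitor of Ras signalling, went from 9.62 and 6.74 CPM to 21.2 and 22.1 CPM (log2 change 1.41, SE 0.29). Dusp1, a phosphatase that inactivates MAP kinases and an immediate early gene itself, went from 119 and 134 CPM to 78.2 and 87.6 CPM (log2 change −0.61, SE 0.15; edgeR BH-adjusted p = 0.0432). The ratios of Dusp1, 97.4% and 99.1%, were in the range of those of Errfi1 and Spred2 (85.7% to 100%), and its total fell where theirs rose. Epha2, a receptor tyrosine kinase for ephrins, rose from 26.2 and 16.7 CPM to 56.6 and 46.4 CPM (log2 change 1.28, SE 0.21).

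Of 26 p53 targets, 5 rose and 0 fell, with a median log2 change of 0.35 (0.22 when libraries were scaled on genes with the lowest ratio). The transcription factor p53 responds to DNA damage and nucleolar stress and induces genes that halt the cell cycle. Cdkn1a, the cell cycle inhibitor p21 (chr17:29090976-29100727), stood at 117 and 87.0 CPM without 4sU and at 286 and 257 CPM with it, a log2 change of 1.42 (SE 0.16; n = 2 and 2; edgeR BH-adjusted p = 9.7e-05). Of its RNA 84.6% (quantiles 82.1% to 86.9%) and 85.4% (82.6% to 88.0%) carried label. Mdm2, the ubiquitin ligase that degrades p53, went from 107 and 129 CPM to 211 and 273 CPM (log2 change 1.03, SE 0.20; edgeR BH-adjusted p = 0.0144), with ratios of 98.8% and 99.9%. Ccng1, cyclin G1, had lower ratios, 32.3% and 42.8%, and went from 98.6 and 77.3 CPM to 141 and 142 CPM (log2 change 0.69, SE 0.14). Eda2r, a receptor of the tumour necrosis factor family, is a low-count gene, at 1.68 and 1.59 CPM without 4sU and at 6.25 and 8.93 CPM with it (log2 change 2.20, SE 0.48). Btg2, described above, also belongs to this list.

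Of 19 cytokines and NF-kappaB targets, 3 rose and 0 fell, with a list median of 0.08 (−0.05 when libraries were scaled on genes with the lowest ratio). Ptgs2, the inducible prostaglandin synthase COX-2, stood at 409 and 374 CPM without 4sU and at 700 and 638 CPM with it, a log2 change of 0.77 (SE 0.16; edgeR BH-adjusted p = 0.0214). Ccl2, a chemokine for monocytes, went from 128 and 78.9 CPM to 216 and 178 CPM (log2 change 0.94, SE 0.19). Lif, a cytokine of the interleukin 6 family, was near the filter on low counts without 4sU, at 2.89 and 0.793 CPM, and stood at 10.3 and 11.1 CPM with it (log2 change 2.59, SE 0.43). A further cytokine of that family, Clcf1, was among the 15 largest rises with a mean count of at least 50. It went from 59.2 and 63.2 CPM to 149 CPM in both libraries (log2 change 1.28, SE 0.20), and its ratio was 100% in both.

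Genes of secreted and matrix proteins rose at both high and low shares of new RNA. Of 33 tested 4 rose and 0 fell, and of 20 genes that respond to YAP and TGF-beta signalling 3 rose and 0 fell, and the lists overlap. Thbs1, the matrix protein thrombospondin 1, went from 170 and 135 CPM to 287 and 264 CPM (log2 change 0.85, SE 0.15; n = 2 and 2; edgeR BH-adjusted p = 0.00671), with ratios of 88.6% and 87.5%. Skil, a repressor of Smad transcription factors, went from 27.9 and 25.8 CPM to 71.1 and 54.6 CPM (log2 change 1.23, SE 0.16; edgeR BH-adjusted p = 0.000913). Tnc, the matrix protein tenascin C, and Timp1, an inhibitor of matrix metalloproteinases, rose less, by 0.50 (SE 0.13) and 0.60 (SE 0.14), and most of their RNA carried no label (ratios of 38.2% and 36.0% for Tnc and of 31.9% and 30.9% for Timp1). Neither passed with scaling on the genes with the lowest ratio. Of 13 BMP pathway feedback genes 1 rose and 1 fell, with a list median of 0.33. The fall was that of Rgma, a co-receptor, from 52.7 and 49.6 CPM to 30.6 and 29.4 CPM (log2 change −0.77, SE 0.19).

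Of 14 genes of zinc export and metal binding, 2 rose and 0 fell. Slc30a1, the zinc exporter of the plasma membrane (chr1:191906767-191913247), stood at 18.8 CPM in both libraries without 4sU and at 44.6 and 47.3 CPM with it. The log2 change was 1.29 (SE 0.18; n = 2 and 2; edgeR BH-adjusted p = 0.00142), and its ratio was 100% and 98.8%. Mt2, a metallothionein, which binds zinc and copper, went from 197 and 196 CPM to 307 and 336 CPM (log2 change 0.71, SE 0.13; edgeR BH-adjusted p = 0.00705), with ratios of 57.5% and 66.4%. The promoters of both are given, since metal-responsive genes of this kind are known to be driven through repeats of the metal response element, marked in capitals with the other motifs as above.
Slc30a1, chr1:191906531-191906780, plus strand: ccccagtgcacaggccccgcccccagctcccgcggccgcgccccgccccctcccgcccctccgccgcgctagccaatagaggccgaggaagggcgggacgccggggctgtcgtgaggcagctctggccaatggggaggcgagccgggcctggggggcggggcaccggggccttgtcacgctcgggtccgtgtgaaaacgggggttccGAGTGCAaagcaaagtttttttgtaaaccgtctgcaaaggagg
Mt2, chr8:94172368-94172617, plus strand: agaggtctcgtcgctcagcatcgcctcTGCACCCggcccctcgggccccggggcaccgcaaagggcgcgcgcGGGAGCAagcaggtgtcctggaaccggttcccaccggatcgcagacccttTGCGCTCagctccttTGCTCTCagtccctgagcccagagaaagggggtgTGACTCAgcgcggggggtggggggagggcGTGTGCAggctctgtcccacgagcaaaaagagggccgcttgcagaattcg
The Mt2 window holds 5 matches to the loose pattern TGCNCNC, on both strands, and 1 AP-1 site. The Slc30a1 window holds 1 match to that pattern. Single matches to it are common, as given above.

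Other rises among the 15 largest with a mean count of at least 50 were those of Angptl4, Arl8a and Plscr2. Angptl4 is a secreted inhibitor of lipoprotein lipase. Angptl4 (chr17:33773750-33781830) stood at 53.2 and 52.7 CPM without 4sU and at 131 CPM in both libraries with it, a log2 change of 1.31 (SE 0.14; n = 2 and 2; edgeR BH-adjusted p = 7.72e-05), with ratios of 84.4% and 86.3%. Arl8a, a small GTPase of lysosomes, went from 8.18 and 5.35 CPM to 15.8 CPM in both libraries (log2 change 1.24, SE 0.27). Plscr2, of the phospholipid scramblase family, went from 5.77 and 3.17 CPM to 13.1 and 10.3 CPM (log2 change 1.41, SE 0.35; edgeR BH-adjusted p = 0.0475). Bhlhe40, a repressor in the circadian clock, rose by 0.99 (SE 0.18), the only call among 16 clock genes.

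The falls were led, where the mean count reached 50, by Mfsd9, a membrane protein of the major facilitator family, with a log2 change of −1.58 (SE 0.36), from 11.1 and 17.4 CPM to 4.59 and 4.98 CPM. Irs1, the insulin receptor substrate (chr1:82233101-82291416), stood at 55.3 and 67.6 CPM without 4sU and at 28.8 and 29.1 CPM with it, a log2 change of −1.09 (SE 0.17; n = 2 and 2; edgeR BH-adjusted p = 0.00346). Its ratio was 100% in both libraries (quantiles 95.9% to 99.9% and 96.0% to 99.9%). Irs2, its paralogue, named after its values were seen, went from 85.6 and 75.1 CPM to 43.0 and 35.4 CPM (log2 change −1.03, SE 0.18; edgeR BH-adjusted p = 0.00671), with ratios of 100% and 90.2%. Mertk, a receptor kinase for the uptake of dying cells, changed by −1.12 (SE 0.26) and Ephb3, an ephrin receptor, by −1.11 (SE 0.23), where the related Epha2 rose. Dio2, the deiodinase that activates thyroid hormone, changed by −1.11 (SE 0.21).

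Of 21 genes of the HUSH complex and of heterochromatin silencing, 3 fell and 0 rose, with a list median of −0.11. Fam208a, the HUSH subunit TASOR (chr14:27428834-27483555), stood at 23.8 and 28.7 CPM without 4sU and at 7.52 and 11.3 CPM with it (log2 change −1.49, SE 0.32; n = 2 and 2; edgeR BH-adjusted p = 0.0216). Zmym2 (chr14:56886653-56962701), a zinc finger protein of repressor complexes, went from 34.2 and 38.5 CPM to 14.9 and 16.1 CPM, a log2 change of −1.23 (SE 0.18; edgeR BH-adjusted p = 0.00143), and its relative Zmym4 changed by −0.76 (SE 0.16). Mettl14, a subunit of the methyltransferase that writes N6-methyladenosine, fell from 20.7 and 26.8 CPM to 10.8 and 7.62 CPM (log2 change −1.36, SE 0.26), the only call among 19 writers, readers and erasers of that mark. Pias1, a SUMO ligase, was the only call among 19 SUMO genes, at −1.20 (SE 0.22). Senp3, a SUMO protease, had the second smallest p of that list and did not pass (log2 change 1.33, SE 0.34; edgeR BH-adjusted p = 0.0543), and its no-4sU libraries differed from each other, at 26.5 and 7.14 CPM. Of 298 zinc finger genes with a Zfp symbol 2 fell and 0 rose, Zfp367 at −1.01 (SE 0.18) and Zfp639 at −0.89 (SE 0.17), which is 0.7% called, beside 1.87% of all genes.

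The list of 26 mitosis genes held 0 calls and had a median of −0.16. Outside that list, Kif14, a kinesin of cytokinesis, went from 59.9 and 102 CPM to 36.0 and 39.5 CPM, a log2 change of −1.11 (SE 0.21; n = 2 and 2; edgeR BH-adjusted p = 0.0104). Rtkn2 changed by −1.11 (SE 0.24), G2e3, a ubiquitin ligase of G2 phase, by −1.02 (SE 0.15), and Cdca2, a phosphatase subunit of mitotic chromatin, by −0.74 (SE 0.17). Kif20b, a mitotic kinesin of the list, lay at −0.60 (SE 0.17) and did not pass (edgeR BH-adjusted p = 0.0855). Of 24 genes of the integrated and endoplasmic reticulum stress responses 2 fell and 0 rose. Ppp1r15a, the phosphatase subunit GADD34, went from 29.6 and 27.0 CPM to 16.8 and 12.9 CPM (log2 change −0.92, SE 0.20), and Herpud1, a factor of protein degradation at the endoplasmic reticulum, changed by −0.68 (SE 0.16). Nemp1 and Lurap1l were also among the 15 largest falls with a mean count of at least 50, as were Clcn3 and Ap5z1. Nemp1, a nuclear envelope protein, lay at −1.32 (SE 0.29) and Lurap1l at −1.12 (SE 0.15). Clcn3, a chloride and proton exchanger, lay at −1.10 (SE 0.22) and Ap5z1, an adaptor complex subunit, at −1.08 (SE 0.23). Among nuclear long noncoding RNAs, Dancr fell under both gene IDs it has in the table (log2 changes −0.88 and −0.82, SE 0.17 each). The sources used here do not say how reads were divided between these IDs, so the 2 calls are not independent.

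Several lists of housekeeping genes lay above the median of all genes with few calls or none. Their median ratios ran from 13.0% (cytosolic ribosomal proteins) to 36.4% (uridine uptake and pyrimidine synthesis), beside 40.4% for all genes with a value. The 83 cytosolic ribosomal protein genes had a median log2 change of 0.21 with 0 calls, 81 of them above 0 and 63 above 0 when libraries were scaled on genes with the lowest ratio. Their median ratio was 13.0%. The 87 nuclear genes of oxidative phosphorylation had a median of 0.20 and 1 rise, Ndufb6, and a median ratio of 13.8%. Among 30 actin and tubulin genes, with a median of 0.22, the smallest p was that of Tubb6, at 0.80 (SE 0.21; edgeR BH-adjusted p = 0.0554), and 0 passed. Also with 0 calls, proteasome subunits had a median of 0.15, glycolysis 0.17, heat shock proteins 0.14 and genes of uridine uptake and pyrimidine synthesis 0.18. With the other scaling these medians were 0.02, 0.04, 0.01 and 0.05, beside −0.104 for all genes. That scaling moves log2 changes by about −0.13 and centres genes of low ratio near 0. For lists of low ratio a median near 0 is therefore largely built in. Fibroblast markers, with a median of 0.23 and 0 calls of 11, lay at a like median, and their part in the lists' medians was not tested. Lists below 0 with 0 calls were the interferon response (median −0.43, 12 genes, Irf1 lowest in p at −0.94, SE 0.26), DNA repair and checkpoint genes (−0.23, 27 genes, Atm at −0.72, SE 0.19) and cholesterol synthesis and uptake (−0.10, 21 genes). SR splicing factors with Clk kinases and RNA polymerase II pausing factors also had 0 calls. Of the genes named in any case, Gapdh lay at 0.11 (SE 0.23, but −0.025 with scaling on genes with the lowest ratio and −0.126 without no-4sU library B), Actb at 0.18 (SE 0.14) and Malat1, a nuclear noncoding RNA, at −0.19 (SE 0.19).

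**Figure D2:**
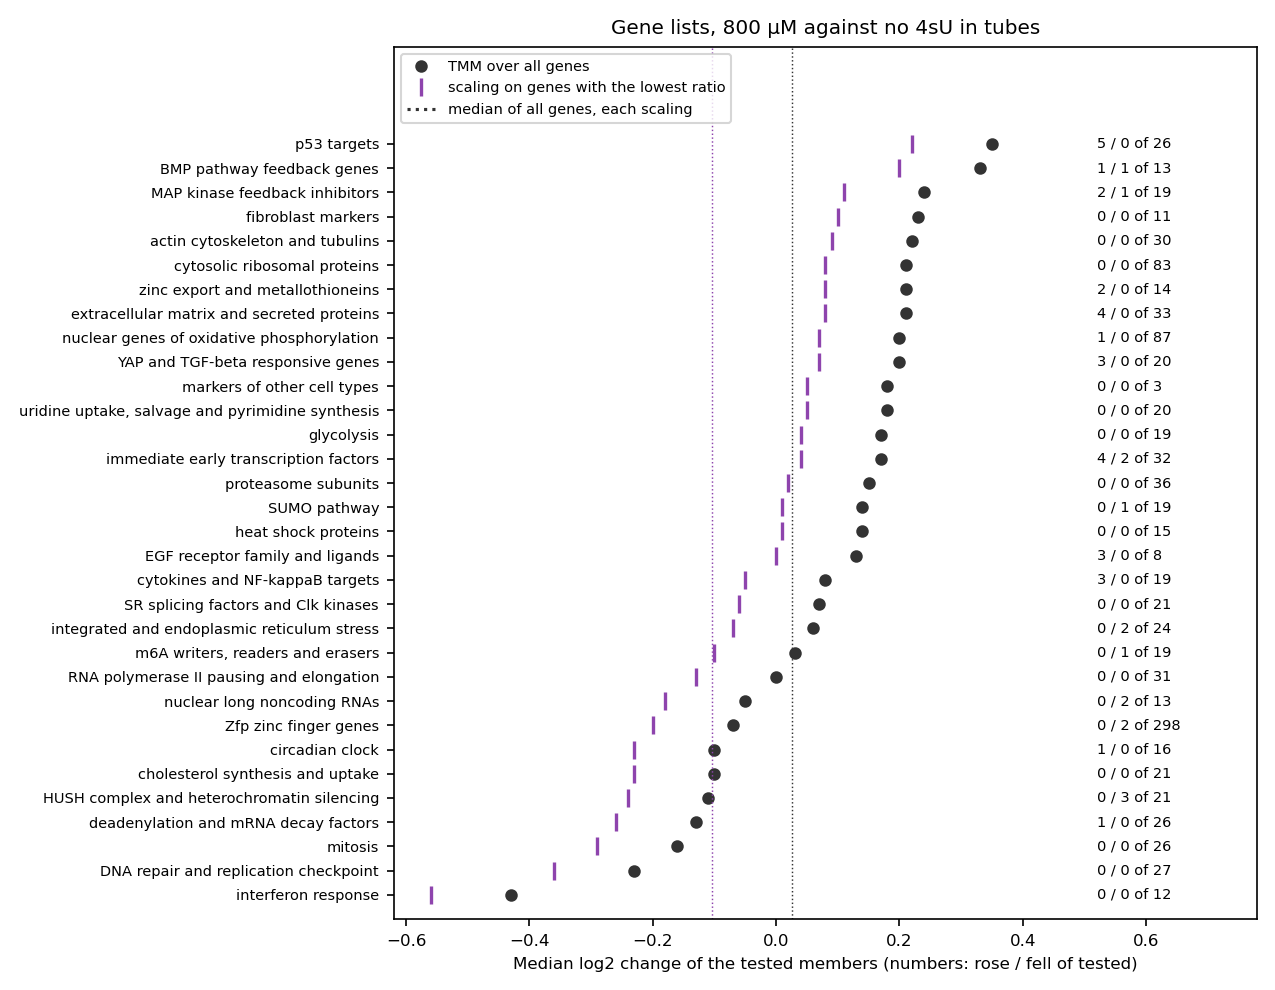
Median log2 change (800 µM against no 4sU, tubes) of each gene list with at least 3 tested members; black points use TMM scaling over all genes, purple bars scaling on the genes with the lowest new-to-total ratio, dotted lines the median of all genes under each, and the numbers count risen and fallen genes of those tested. The p53 targets lie highest, at 0.35 with 5 rises of 26, and the interferon response lowest, at −0.43 with 0 calls of 12.

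The new-to-total ratio divides the total RNA of the labelled libraries into a labelled part (CPM times the ratio) and an unlabelled part (CPM times 1 minus the ratio). The ratio has no value in the libraries without 4sU, so each part is set beside their total, and no test was made. For the 7145 genes counted at least 100 times in both 800 µM libraries, the median ratio was 40.0% in A and 40.6% in B. Of the called genes 90 of 101 risen and 79 of 106 fallen ones meet that minimum, which is set on the libraries with 4sU and so removes more falls. Risen and fallen genes both had high ratios, with medians of 73.6% and 73.9% for rises and of 75.3% and 77.3% for falls. Ratios of at least 80% were found in 40 of the 90 rises and 34 of the 79 falls, beside 14.5% of all genes with a value. The bounds of 80% and 50% and the comparison of each part with the controls were chosen after the called genes' values were seen.

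**Figure D3:**
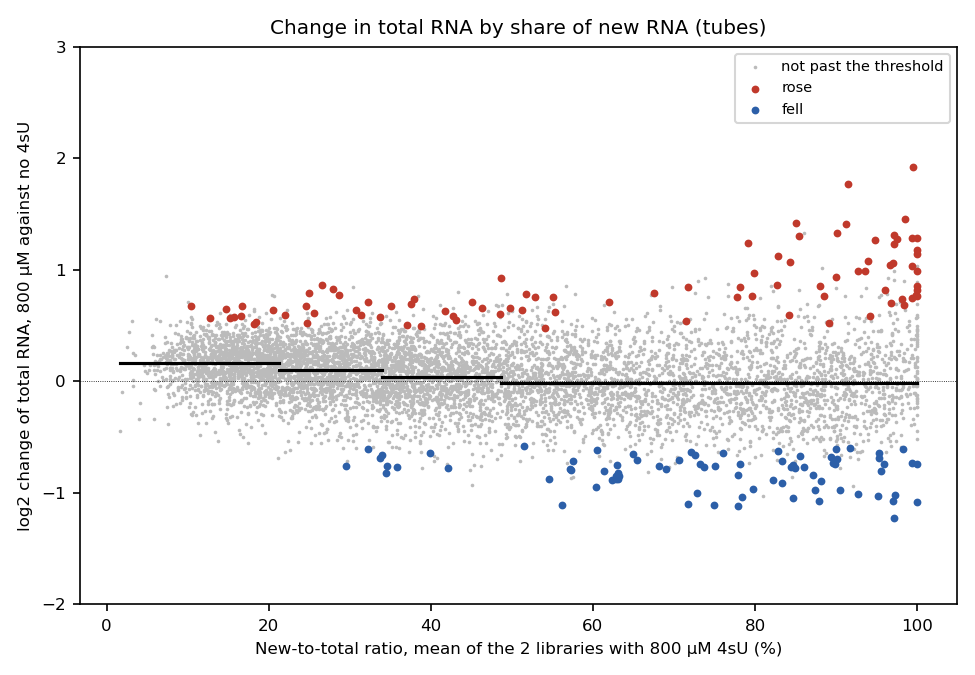
log2 change of total RNA against the new-to-total ratio (mean of the 2 tube libraries with 800 µM 4sU, in percent) for 7145 genes; red points rose, blue points fell, and black bars are the medians in 5 bins of equal size by ratio. The medians go from 0.16 in the lowest bin to −0.02 in the highest, and both rises and falls are most frequent in the highest bin (46 and 48).

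In the 40 rises with a ratio of at least 80%, the labelled part alone lay above the total of both libraries without 4sU, also at the 0.05 quantile of the ratio. A risen total and a high ratio, by which they were chosen, nearly fix this. Their unlabelled part was a median 6.8% of the level without 4sU and their labelled part 191.7%. The rule named the 5 with the highest ratio, Errfi1, Dlx2, Fbxo30, Gse1 and Iffo2, all at 100% in both libraries. Dlx2, a homeobox transcription factor, went from 33.4 and 37.1 CPM of total RNA without 4sU to 62.6 and 62 CPM of labelled RNA. Fbxo30, an F-box protein, rose by a log2 change of 0.77 (SE 0.16), Gse1 by 1.18 (SE 0.24) and Iffo2 by 0.85 (SE 0.21).

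In the 35 rises with a ratio under 50% the median log2 change was 0.64, against 1.04 for rises at 80% or more, and the deposited length was a median 1991 bases, against 3476 for all genes with a value. In 20 of the 35 the unlabelled part alone exceeded the total of both libraries without 4sU, in 16 of them also at the 0.95 quantile of the ratio. The choice by a risen total and a low ratio fixes this in large part, so it is a description. Over all genes, most with no called change, 230 of 7145 (3.2%) had such an unlabelled part. The unlabelled part of these 35 was a median 111.1% of the level without 4sU. These levels are relative and depend on scaling. With scaling on the genes with the lowest ratio the 20 became 11 and the 230 became 76. With 1 library left out the 230 became 388 to 469, where fewer libraries have to be exceeded.

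Ndufb6, a subunit of mitochondrial complex I (chr4:40270591-40279421), had the lowest ratio of the rises, 10.9% (quantiles 8.5% to 13.9%) and 9.9% (7.4% to 13.4%). Its total went from 34.9 and 40.0 CPM to 64.3 and 55.8 CPM (log2 change 0.68, SE 0.16, edgeR BH-adjusted p = 0.0364), and its unlabelled part alone was 57.3 and 50.3 CPM. With scaling on the genes with the lowest ratio it did not pass (log2 change 0.55; edgeR BH-adjusted p = 0.0648), nor did Arpc3, Wdr83os, Cuta, Tmbim6, Timp1 or Tnc, while Ccng1 did. Arpc3, a subunit of the actin-nucleating Arp2/3 complex, went from 71.5 and 69.0 CPM to 108 and 99.6 CPM, of which 93.4 and 87.8 CPM carried no label. Tmbim6, a membrane protein of the endoplasmic reticulum, went from 178 and 164 CPM to 265 and 247 CPM, with 220 and 211 CPM unlabelled. Wdr83os and Cuta showed the same order, with unlabelled parts of 134% and 126% of the level without 4sU. Timp1, too, had 365 and 359 CPM of unlabelled RNA beside 348 and 349 CPM in all without 4sU. In Ccng1 and Tnc the unlabelled part was 101% and 89.1% of that level and the labelled part came on top. Some of the 35, such as Ptma, Prl2c2 with Prl2c3 and the Gm gene models, have near-identical copies between which reads may be split, so their values are uncertain.

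**Figure D4:**
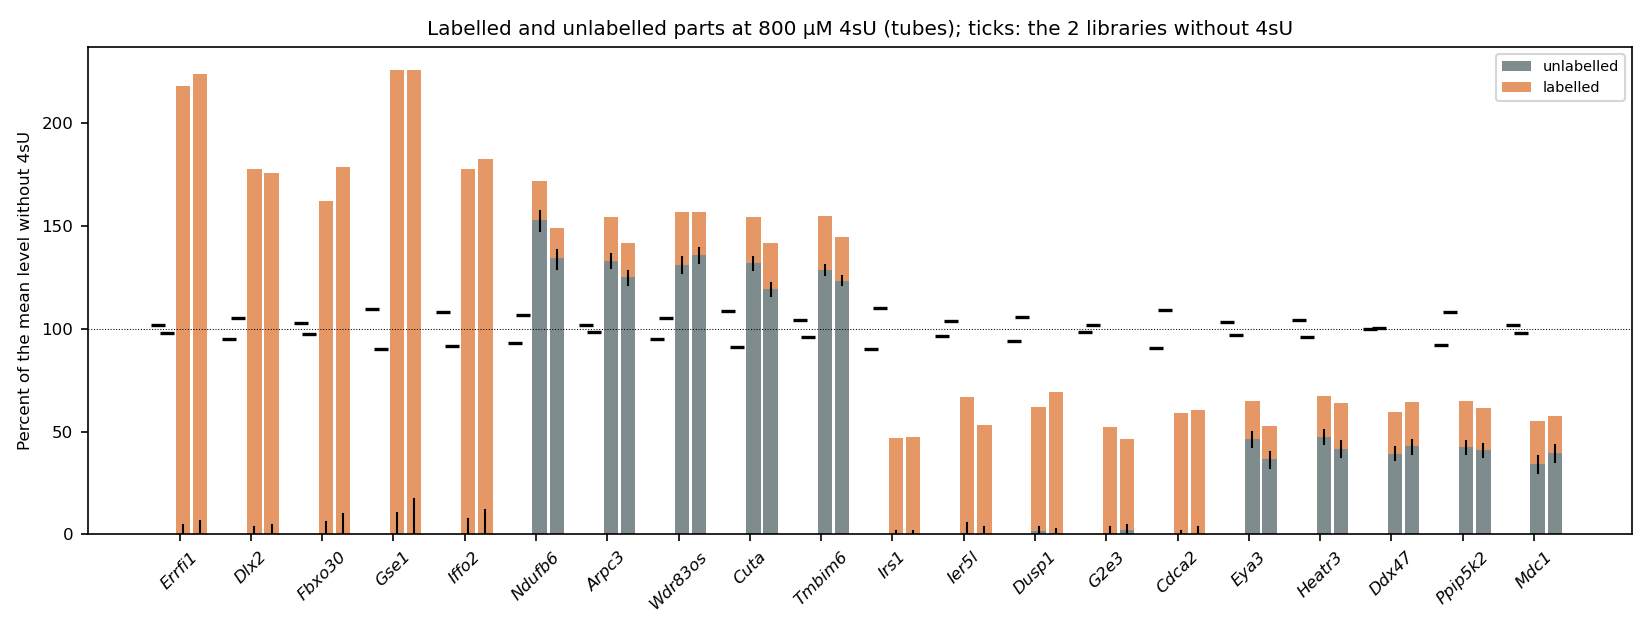
Labelled (orange) and unlabelled (grey) parts in the 800 µM tube libraries A (left bar) and B (right bar), as percent of the mean level without 4sU; black ticks are the 2 libraries without 4sU and thin vertical lines the unlabelled part at the 0.05 and 0.95 quantiles of the ratio. Risen genes come first, 5 of highest and 5 of lowest ratio, then fallen genes in that order; grey alone passes the ticks in Ndufb6, Arpc3, Wdr83os, Cuta and Tmbim6.

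The 79 falls had higher ratios than all genes with a value, with medians of 75.3% and 77.3% against 40.0% and 40.6%. Their parts are therefore not set beside all genes at a like ratio. Over the 79 genes the unlabelled part was a median 13.2% of the level without 4sU and the labelled part 43.2%. For all genes with a value these medians were 60.6% and 41.1%. Neither part can exceed the controls where the total lies below them, as it does here. Among the 34 falls with a ratio of at least 80%, the unlabelled part was a median 6.1%, close to the 6.8% of the rises in that range, and the labelled part 50.2%, against 191.7%. At a like ratio this difference in the labelled part is the difference in total by which the genes were chosen. The 5 falls with the highest ratio were Irs1, Cdca2, Ier5l, Dusp1 and G2e3. In Irs1 the labelled RNA, 28.8 and 29.1 CPM, was 47.1% of the level without 4sU, and in Dusp1 it was 64.6%. The 9 falls with a ratio under 50% kept a median 38.6% of that level as unlabelled RNA. The rule named Eya3, a transcriptional coactivator, Heatr3, Ddx47, an RNA helicase, Ppip5k2, an inositol phosphate kinase, and Mdc1, a mediator of the DNA damage checkpoint. Eya3 went from 42.3 and 39.8 CPM to 26.6 and 21.7 CPM, of which 19.1 and 15 CPM carried no label. Ddx47 went from 73.9 and 74.1 CPM to 44.0 and 47.7 CPM (log2 change −0.69, SE 0.14), with 29.1 and 31.7 CPM unlabelled.

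Across genes the log2 change was lower at higher ratios and at greater lengths. Spearman's correlation across the 7145 genes was −0.228 with the ratio and −0.216 with the deposited length. With the uridine share of the transcript it was 0.025 over the 7138 genes that have a sequence. Genes share libraries and are not independent replicates, so these are descriptions. In 5 bins of equal size by ratio the median change was 0.16, 0.10, 0.04, −0.02 and −0.02. In the lowest bin (ratio 1.7% to 21.3%) 10 genes rose and 0 fell, and in the highest (71.6% to 100%) 46 rose and 48 fell. In bins of length the median went from 0.15 in the shortest, where 25 rose and 7 fell, to −0.02 in the longest, where 10 rose and 29 fell. Bins of the uridine share had medians between 0.05 and 0.07. The part of ratio, length or scaling in single genes' changes was not tested.

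The same dose in fixed cells, whose libraries share no control with the tubes, gave 295 calls (2.66%), 86 higher (0.776%) and 209 lower (1.89%). Of the 101 rises in tubes 33 (32.7%) were also called higher there, which is 38.4% of the rises in fixed cells, and of the 106 falls 65 (61.3%), or 31.1% of those in fixed cells. None was called in the opposite direction, and 96 rises and 104 falls had the same sign. The share of same signs over all genes tested is not given here. Cdkn1a rose by 1.09 (SE 0.15) in fixed cells, Angptl4 by 1.28 (SE 0.14) and Ereg by 1.70 (SE 0.25). Irs1 changed by −1.53 (SE 0.18), Zmym2 by −1.06 (SE 0.18) and Mettl14 by −1.45 (SE 0.27). Of the 5 rises with the lowest ratio, Ndufb6 lay at 0.16 (SE 0.15) in fixed cells, Arpc3 at 0.19 (SE 0.13), Cuta at 0.02 (SE 0.14) Wdr83os at 0.25 (SE 0.14) and Tmbim6 at 0.36 (SE 0.13), and none of these 5 passed there. Of the 5 rises with the highest ratio Errfi1 passed in fixed cells (0.65, SE 0.16), while Dlx2 (0.34, SE 0.17), Fbxo30 (0.09, SE 0.16), Gse1 (0.79, SE 0.24) and Iffo2 (0.50, SE 0.22) did not.

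The difference between the procedures was tested directly. In edgeR 0 genes passed, with a smallest BH-adjusted p of 0.796, and 654 of 11080 had an unadjusted p under 0.05. DESeq2 called 0, the fit without a filter on low counts 24, and the fit without fixed 800 µM library B 123. Where the mean count reached 50, the genes with the smallest unadjusted p were Triobp, a protein that binds actin, Cep152, a centrosome protein, and Epha2, each with the higher log2 change in tubes, and Mmp19, Acot2 and Hoxc9, each with the lower. Epha2 changed by 1.28 (SE 0.21) in tubes and by −0.02 (SE 0.21) in fixed cells (unadjusted p = 0.000318). Nr4a1 changed by 1.93 in tubes and 1.12 in fixed cells (unadjusted p = 0.00669).

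**Figure D5:**
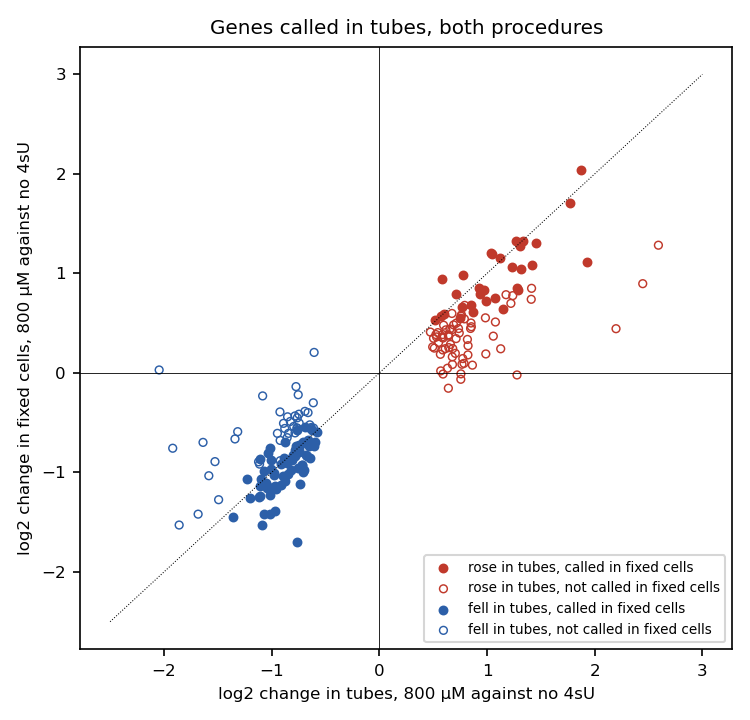
log2 change in fixed cells against log2 change in tubes (800 µM against no 4sU) for the genes called in tubes; filled points were also called in fixed cells, open points were not, and the dotted line marks equal change. The plot shows 203 of the 207 genes; 4 lie beyond the axes. Rises spread to the right of the line, which their choice by the call in tubes favours. Epha2, also named for its small p in the difference between the procedures, lies at 1.28 in tubes and −0.02 in fixed cells.

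Between 800 and 200 µM in tubes, a step that uses no control library, 0 genes passed in edgeR (smallest BH-adjusted p 0.107), and 987 had an unadjusted p under 0.05. DESeq2 called 13, the fit without a filter on low counts 92 and the fit without 200 µM library B 2. Where the mean count reached 50, Cdc42ep3 had the smallest unadjusted p (9.7e-06), with a log2 step of 1.43 towards 800 µM, followed by Slc16a1, a lactate transporter, with a step of 0.75. Dancr had steps of −0.75 (unadjusted p = 0.000241) and −0.76 (unadjusted p = 0.000212) under its 2 IDs. Of the 207 genes called against no 4sU, 55 had an unadjusted p under 0.05 in edgeR for this step, beside 8.91% of all genes tested. Both contrasts use the 800 µM libraries, so the choice by that call favours this. Hbegf had a step of 0.57 (edgeR unadjusted p = 0.00107) and Zmym2 one of −0.58 (edgeR unadjusted p = 0.00496). Nr4a1 and Cdkn1a had steps of 0.08 (edgeR unadjusted p = 0.67) and 0.07 (edgeR unadjusted p = 0.635).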

How the data were processed

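Total RNA of NIH-3T3 cells was measured by SLAM-seq in 12 libraries, 2 for each dose and conversion procedure. The authors deposited one table. It holds, for each library, expected counts of every gene, called read counts by the authors and in part not whole. The new-to-total ratio was deposited by the authors as a fraction, per the file headers with mean, MAP value and 0.05 and 0.95 quantiles of a beta posterior. A transcript length in bases is given for each gene. Tools listed in the submitters' processing notes are STAR 2.7.10b, Bowtie2 2.3.0 and cutadapt. Not given in the sources used here are their roles, the genome build, the annotation, the use of strand and the tool behind the ratio. Without a stated strand, reads of overlapping and antisense genes cannot be told apart. Of the table's per-sample columns 40 were not used.

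Expected counts were rounded and filtered with filterByExpr (minimum count 10, minimum total 15). All 12 libraries in 6 groups entered edgeR 4.0.16 (R 4.3.3) with TMM scaling and the quasi-likelihood test, so that the groups share an estimate of the spread (6 residual degrees of freedom, common biological coefficient of variation 12.3%). P-values were BH-adjusted over all genes tested, and SE is the log2 change over the square root of F. The 3 contrasts were 800 µM against no 4sU in tubes, 800 against 200 µM in tubes, and the difference of the 800 µM effect between tubes and fixed cells. Totals per library, 3629634 to 7762635, set the precision. The MAP value was used for the ratio; A and B differed by a median 3.5 percentage points, and the median width between the quantiles was 8.7 and 9.3 points. GENCODE M21 (GRCm38) held 15197 of the gene IDs and lacked 20, and a transcript of the deposited length was found for 91.6% of tested genes. Promoters are from RefSeq. Scripts were tested on simulated data.

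Named genes are the 15 largest rises and falls with a mean count of at least 50, the called members and the 2 smallest p of each list, the 5 highest and 5 lowest ratios among risen and fallen genes, and the 3 smallest p per direction of the other contrasts, with Gapdh, Actb, Malat1, Myc and Fos always; unnamed gene models were passed over. Some genes of the rule are not reported here. Members and lists were chosen with earlier results of these data known. Alternatives were DESeq2 1.42.0, its size factors, other filters, scaling on 1949 genes with the lowest ratio, the replicate block, the 4 tube libraries alone and single libraries left out.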

Additional observations from a re-analysis of the deposited data

How the results depend on the processing

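The number of genes called at 800 µM in tubes was 207 (1947 at an unadjusted p under 0.05). It was 212 with DESeq2's size factors, 273 with DESeq2, 199 with a mean count minimum of 50 and 295 with scaling on the genes with the lowest ratio. It moved by over 1.5 times without a filter (482), with the 4 tube libraries alone (400), with a tube library left out (22 to 88) and without fixed 800 µM library A (484, chosen after the data were seen). The cause was not tested. The dose step, 0 calls in edgeR, had 13 with DESeq2, 92 without a filter and 0 to 2 with a library left out. The difference between the procedures, 0 calls, had 24 without a filter and 0 to 123 with a library left out. With scaling on the genes with the lowest ratio, risen genes whose unlabelled part exceeded both controls went from 20 to 11, all such genes from 230 to 76, and the median unlabelled part of fallen genes from 13.2% to 12%. With libraries left out the last 2 lay between 388 and 469 genes and between 12.1% and 13.9%. Spearman's correlation with length was −0.216, and −0.254 with a count of at least 300. Of the 71 named called genes, 10 did not pass with scaling on the genes with the lowest ratio (Ndufb6, Arpc3, Wdr83os, Cuta, Tmbim6, Timp1, Tnc, Plscr2, Maff and Iffo2), 2 with DESeq2's size factors and 1 with the mean count minimum of 50.

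Among the named genes, log2 changes that turned sign were all of genes that were not called. Gapdh was at −0.025 with scaling on the genes with the lowest ratio. With a tube library left out, Gapdh lay between −0.126 and 0.389, Myc between −0.117 and 0.836, Fos between −0.035 and 2.122, Cd68 between −0.3 and 0.809 and Hoxc9 between −0.888 and 0.042, each lowest without no-4sU library B except Hoxc9, which was highest there. Cd68 was at −0.073 without 800 µM library B.

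With the replicate block 177 genes were called in tubes, 171 of them among the 207, and 7 of the 71 named genes did not pass. The labels do not say whether the letters mark a shared culture or day. Deviations of same-lettered libraries correlated at −0.206 to 0.257 between groups, and the highest value, 0.257, was that between the tube groups compared. The dose step and the difference between the procedures had 0 calls with the block.

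Libraries without 4sU have no ratio, and no background was subtracted from the labelled part, and genes under a count of 100 have no parts here.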

Other observations

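Of the 207 called genes 15 had a mean count under 50 over the 4 tube libraries, 8 of them rises and 7 falls, and all were chosen for mention here after their values were seen. Lsmem1, a gene of a membrane protein, had 0 and 3 counts in libraries A and B without 4sU and 73 counts in each with 800 µM. Prr18 had 1 and 2 counts without 4sU and 39 and 22 with it. Fam212b had 11 and 7 counts without 4sU and 58 and 49 with it, and its new-to-total ratio was 81.6% and 83.0%. The ratio of Lsmem1 was 85.0% and 100%, so most of its few reads with 4sU came from labelled RNA.

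Falls with few counts include Prdm9, a histone methyltransferase known from meiosis, with 38 and 35 counts without 4sU and 11 and 17 with it, although the libraries with 4sU are deeper. Pot1a, which protects telomere ends, had 40 and 46 counts without 4sU and 28 and 26 with it (log2 change −1.34, SE 0.32). Ticam1, an adaptor of Toll-like receptors, had 25 and 59 counts without 4sU and 19 and 17 with it, and its 2 libraries without 4sU differ by more than those with it.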
